A study of Homo sapiens with 2 samples.

Results

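The cytosolic heat shock response genes of the human L-cell line NCI-H716 were taken as 10 genes, chosen by symbol: the transcription factor HSF1 and the chaperones and co-chaperones HSPA1A, HSPA1B, HSPA8, HSPH1, BAG3, DNAJB1, HSP90AA1, HSP90AB1 and HSPB1. All 10 had a row among the 19989 genes of the deposited table, and each averaged 10 CPM or more (CPM are estimated counts scaled to a common library total). NCI-H716 is a line from a colorectal adenocarcinoma of the cecum, used as a model of the enteroendocrine L-cell, which secretes glucagon-like peptide-1. The cells were expanded in suspension, attached to Matrigel for 24 h, and then kept for 48 h in DMEM with 10% serum and either low (5.5 mM) or high (25 mM) glucose. Each concentration is represented by 1 library of polyadenylated RNA, so no comparison between the concentrations has a replicate and no p-value was computed. The only difference between the groups that the labels name is glucose; any other difference between the cultures or libraries cannot be told apart from it.

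The heat shock response is the transcriptional programme by which cells raise their protein-folding capacity. In the textbook scheme, HSF1 is held inactive by chaperones, is released when unfolded proteins occupy them, forms a trimer and binds heat shock elements, which are inverted repeats of the unit NGAAN, in the promoters of chaperone genes. HSP70 proteins bind short hydrophobic stretches of clients in an ATP-driven cycle that J-domain proteins start and nucleotide exchange factors end, HSP90 proteins act later on near-native clients, and small heat shock proteins hold clients without ATP. Secretory cells fold their hormone precursors in the endoplasmic reticulum by a separate set of chaperones.

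The sequences of the heat shock elements that a search found in the members' promoter windows are shown first, since HSF1 acts through such elements. RefSeq windows of GRCh38.p14, each running from 250 bases before to 50 bases after an annotated start, were given for 9 of the 10 members, and HSF1 was not among them. The windows were searched for the head-to-head pair of units GAANNTTC, the tail-to-tail pair TTCNNGAA and the 3-unit forms GAANNTTCNNGAA and TTCNNGAANNTTC; each pair reads the same on both strands, and a 3-unit match contains both pairs. In capitals are the bases of the matched units, and all sequences read 5′ to 3′ on the strand of the gene. Positions count from the annotated start base as 0.

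HSPA1A (chr6:31815417-31815464, plus strand, head-to-head pair at -106 to -99): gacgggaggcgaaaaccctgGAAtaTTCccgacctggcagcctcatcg
HSPA1B (chr6:31827613-31827660, plus strand, head-to-head pair at -105 to -98): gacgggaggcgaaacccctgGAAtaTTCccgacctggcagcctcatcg
HSPA8 (chr11:123062159-123062211, minus strand, 3 units at -55 to -43): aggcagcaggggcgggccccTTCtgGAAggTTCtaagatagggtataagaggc
HSPA8 (chr11:123062334-123062386, minus strand, 3 units at -230 to -218): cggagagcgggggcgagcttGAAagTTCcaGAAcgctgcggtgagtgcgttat
HSP90AA1 (chr14:102087085-102087152, minus strand, 3 units and a further pair at -88 to -61): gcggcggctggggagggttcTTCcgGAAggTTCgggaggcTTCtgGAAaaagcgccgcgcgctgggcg
HSP90AB1 (chr6:44247758-44247810, plus strand, 3 units at -165 to -153): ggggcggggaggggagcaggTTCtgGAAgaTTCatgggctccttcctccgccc
HSP90AB1 (chr6:44247811-44247863, plus strand, 3 units at -112 to -100): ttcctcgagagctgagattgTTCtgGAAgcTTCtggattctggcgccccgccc
DNAJB1 (chr19:14518417-14518494, minus strand, a pair at either end of -77 to -40): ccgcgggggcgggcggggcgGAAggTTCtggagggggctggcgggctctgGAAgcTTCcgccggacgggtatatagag
HSPB1 (chr7:76302471-76302518, plus strand, head-to-head pair at -182 to -175): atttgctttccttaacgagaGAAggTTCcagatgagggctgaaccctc

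A 3-unit element was found for HSPA8, HSP90AA1 and HSP90AB1, and a pair of units for those 3 genes and for HSPA1A, HSPA1B, DNAJB1 and HSPB1. No pair was found in the windows of HSPH1 and BAG3, which says only that these letters are absent from these 300 bases. Of all 35116 RefSeq windows, 0.49% held a 3-unit form and 13.5% held a pair. HSP90AA1 has 2 annotated starts with a window, and HSP90AB1 and DNAJB1 have 3 each; the elements of HSP90AA1 and HSP90AB1 lay in 1 window of the gene, and a further pair of DNAJB1 began just after another start and is not shown. The GENCODE v29 spans of HSPA8, HSP90AA1, HSP90AB1 and DNAJB1 begin upstream of the starts shown, so these elements lie inside those spans. A match is a description of the letters, and binding of HSF1 was not measured.

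The depth recovered from the steps between low CPM values came to 21757905 estimated counts for low glucose and 19456656 for high glucose. The CPM used here were divided by trimmed mean of M-values (TMM) factors of 0.998 and 1.002. The intervals given after a CPM are 95% Wilson intervals, those after a log2 ratio are 95% exact binomial intervals, and both cover counting error only. The limit that a count of 0 allows, 3 counts of the total, was 0.138 CPM for low and 0.154 CPM for high glucose. The labelled cell type was checked by a list of 10 L-cell and endocrine markers, of which 9 had a value, led by GCG, which encodes proglucagon, at 1954 CPM in low and 1808 CPM in high glucose; NEUROD1 had no row. Of 7 epithelial and gut markers, 5 averaged 1 CPM or more, and KRT20 and CDH1 were under it. Of 10 markers of other cell types, PTPRC, CD3E, ACTA2 and INS had no row and HBB, PECAM1, VWF and COL1A1 were under 1 CPM, while the macrophage marker CD68 had a mean of 13.7 CPM and ALB, which encodes albumin, a mean of 472 CPM.

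The members together made up 0.718% (low glucose) and 0.775% (high glucose) of all estimated counts, and after TMM scaling summed to 7193 CPM (7157 to 7228) and 7741 CPM (7702 to 7780). The log2 ratio of these sums, high over low glucose, was 0.11 (0.096 to 0.12). Their abundance was uneven: HSP90AA1, HSPA8 and HSP90AB1 ranked 21, 32 and 37 of the 19989 genes by mean CPM, whereas HSF1 ranked 3859 and BAG3 ranked 6456.

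**Figure D1:**
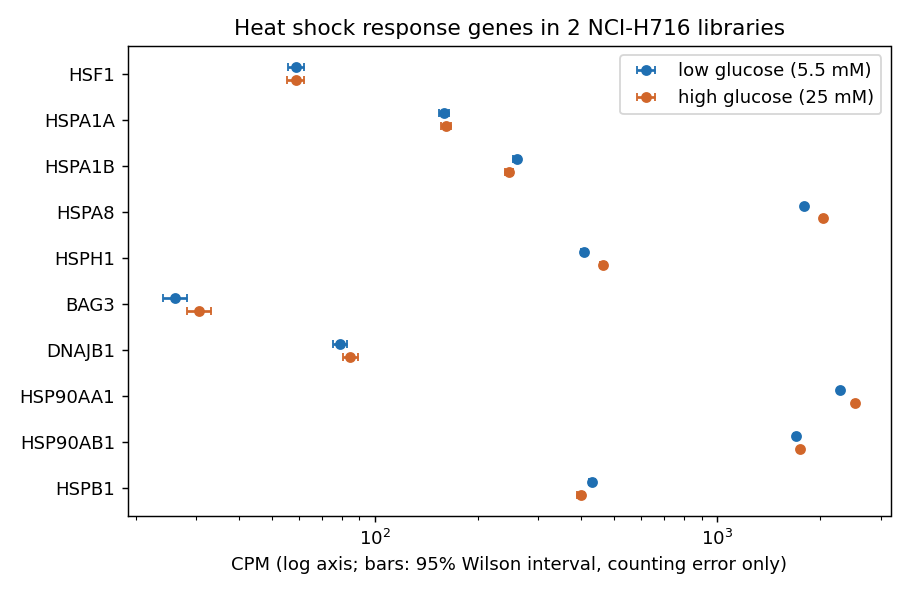
CPM of each of the 10 members (rows) in the low (blue) and high (orange) glucose libraries on a log axis, with 95% Wilson intervals as bars. HSP90AA1, HSPA8 and HSP90AB1 lie at 1693 CPM or more in both libraries, BAG3 lies lowest at 26.0 and 30.6 CPM, and the libraries are close for every member.

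HSF1 (ENSG00000185122.10; GRCh38 chromosome 8, 144291591 to 144314722, plus strand), the factor that drives the response, was at 58.8 CPM in low glucose (55.6 to 62.1) and 58.6 CPM in high glucose (55.3 to 62.1), resting on 1277 and 1142 estimated counts. Its log2 ratio of -0.0044 (-0.12 to 0.11) was the smallest in size of the 10 members, and its intervals in the libraries overlapped almost wholly. DGAT1 lies on the opposite strand in the same span; 3.14% of the 75-base windows of the HSF1 transcript occur also in other genes, and DGAT1 itself was at 11.1 and 11.7 CPM. Of the other listed factors, HSF2 was at 16.5 and 16.8 CPM, HSF4 at 1.21 (0.815 to 1.75) and 0.936 CPM (0.584 to 1.46), and HSF5 had no row. HSBP1, a small protein that binds HSF1 trimers and had the highest mean CPM of this list, was at 183 CPM (178 to 189) in low and 192 CPM (186 to 198) in high glucose.

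The stress-inducible HSP70 genes HSPA1A and HSPA1B are single-exon neighbours on chromosome 6 (31815464 to 31817946 and 31827735 to 31830255, both plus strand). HSPA1A was at 159 CPM in low glucose (153 to 164) and 161 CPM in high glucose (156 to 167), with a log2 ratio of 0.025 (-0.045 to 0.095). HSPA1B was at 259 CPM (252 to 266) and 247 CPM (240 to 254), with a log2 ratio of -0.072 (-0.13 to -0.016). The difference in HSPA1A was within counting error, and HSPA1B was lower in high glucose, a change of -4.87%.

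These genes are hard to tell apart by short reads. Their coding sequences of 1923 bases differ at 4 bases, an identity of 99.8%, and the printed promoter elements above are the same 8 bases in both. Of the 75-base windows of the HSPA1A transcript, 71.2% also occur in HSPA1B. For HSPA1B, 73.2% of windows occur in another gene, and 34.6% occur in AL671762.1, a transcript that overlaps it on the same strand and had no row under that symbol. The division of reads between HSPA1A and HSPA1B is therefore an RSEM estimate, and their order and separate ratios are uncertain. Their sum does not depend on that division between them, although reads shared with AL671762.1 could enter it: it was 418 CPM (409 to 426) in low glucose and 408 CPM (399 to 417) in high glucose, with a log2 ratio of -0.034 (-0.078 to 0.0092), an interval that includes 0.

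**Figure D2:**
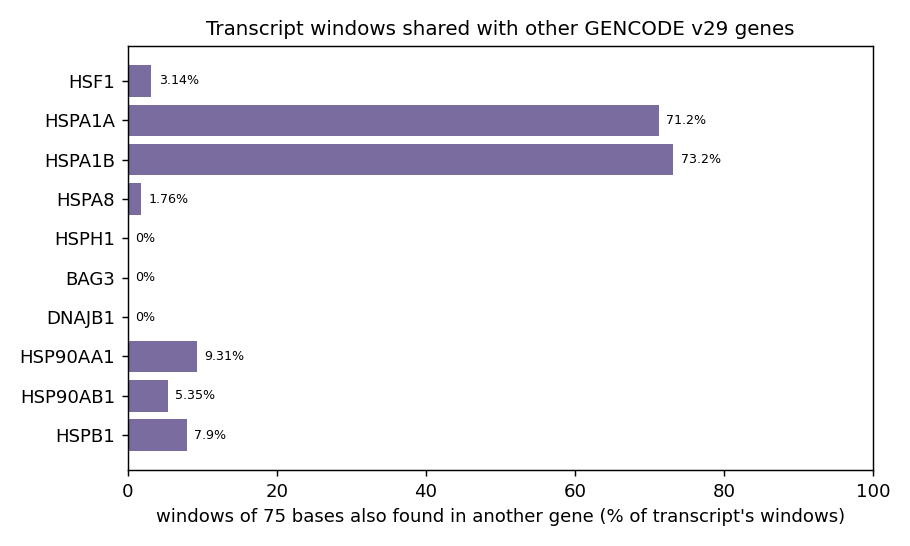
For each member (rows), the percentage of all 75-base windows of its longest protein-coding transcript that also occur, on either strand, in a transcript of another GENCODE v29 gene. HSPA1A and HSPA1B stand at 71.2% and 73.2%, and every other member is below 10%.

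HSPA8, the constitutive HSP70 that folds new proteins and uncoats clathrin vesicles (chromosome 11, 123057489 to 123063230, minus strand), was at 1797 CPM in low glucose (1779 to 1815) and 2032 CPM in high glucose (2012 to 2052). It was 13.1% higher in high glucose, with a log2 ratio of 0.18 (0.16 to 0.20), and the intervals of the libraries did not overlap. Only 1.76% of its windows occur in another gene.

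Of the nucleotide exchange factors, HSPH1, an HSP110 protein that releases ADP from HSP70 (chromosome 13, 31134974 to 31162388, minus strand), was at 409 CPM in low glucose (400 to 417) and 464 CPM in high glucose (454 to 473). The log2 ratio was 0.18 (0.14 to 0.23), or 13.5% higher in high glucose. BAG3 (chromosome 10, 119651370 to 119677819, plus strand) couples HSP70 to small heat shock proteins and to selective autophagy. Its CPM, not divided by length, was the lowest of the members. It was at 26.0 CPM in low (23.9 to 28.2, 565 counts) and 30.6 CPM in high glucose (28.2 to 33.1, 596 counts). Its log2 ratio of 0.23 (0.065 to 0.40) was the largest of the 10 and also the least precise. The intervals of HSPH1 in the libraries were apart, whereas those of BAG3 just met at 28.2 CPM. Neither gene shares a 75-base window with another gene.

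DNAJB1, the HSP40 co-chaperone that delivers clients to HSP70 and starts ATP hydrolysis (chromosome 19, 14514770 to 14529770, minus strand), was at 78.9 CPM in low glucose (75.2 to 82.7) and 84.8 CPM in high glucose (80.8 to 89.0). The log2 ratio was 0.10 (0.0062 to 0.20). The intervals of the libraries overlapped, and the lower limit of the ratio was close to 0.

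The HSP90 pair differed from each other. HSP90AA1, the inducible alpha form (chromosome 14, 102080738 to 102139699, minus strand), was at 2281 CPM in low glucose (2261 to 2301) and 2517 CPM in high glucose (2494 to 2539), with a log2 ratio of 0.14 (0.12 to 0.16). HSP90AB1, the constitutive beta form (chromosome 6, 44246166 to 44253888, plus strand), was at 1693 CPM (1676 to 1710) and 1748 CPM (1729 to 1766), with a log2 ratio of 0.046 (0.024 to 0.067). Both were higher in the high glucose library, and the counting intervals of their ratios did not overlap. Windows shared with other genes made up 9.31% for HSP90AA1, mainly with the pseudogene HSP90AA2P and with WDR20 on the opposite strand, and 5.35% for HSP90AB1, mainly with HSP90AB3P, which was at 2.79 and 3.21 CPM.

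HSPB1, the small heat shock protein HSP27 (chromosome 7, 76302544 to 76304295, plus strand), went in the other direction. It was at 432 CPM in low glucose (423 to 441) and 399 CPM in high glucose (390 to 407), a change of -7.70%, with a log2 ratio of -0.12 (-0.16 to -0.072). Its intervals in the libraries did not overlap.

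Levels of different genes were compared per kb of exon, since longer transcripts give more counts. By CPM per kb of all annotated exons, the order of mean levels was HSP90AB1 (577), HSP90AA1 (457), HSPA8 (395), HSPB1 (254), HSPA1B (100.3), HSPA1A (64.4), HSPH1 (52.0), DNAJB1 (22.3), HSF1 (11.1) and BAG3 (10.3). Neighbours in this order had separate intervals in both libraries except HSF1 and BAG3, which overlapped in high glucose at 11.04 and 11.14 CPM per kb; the order of HSPA1B and HSPA1A remains uncertain because of the shared reads. The top of the order depended on the length used: per kb of the longest protein-coding transcript, HSPA8 led at 777, followed by HSP90AA1 at 683 and HSP90AB1 at 643, and HSPH1 at 84.0 moved above HSPA1A at 64.4. HSPB1, a short transcript, kept position 4 by both lengths, at 457 CPM per kb of the longest transcript.

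Between the libraries, 0 of the 10 members differed by 1.2-fold or more, a log2 ratio of 0.26 in size. Among all 9345 genes averaging 10 CPM or more, 8.01% did, 3.2% in the direction of high glucose and 4.82% in that of low glucose; at a fold of 1.1, 4 of 10 members passed, beside 34.3% of all genes. The members ranged from -0.12 for HSPB1 to 0.23 for BAG3, with a median of 0.075, against a median of 0.0063 and a middle 90% of -0.26 to 0.23 over those 9345 genes. Above 0 were 7 of the members' ratios and below it 3, where 51.9% of those 9345 genes and 57.9% of the 2239 genes averaging 100 CPM or more were above 0. BAG3 alone lay past the upper end of that middle 90%, and its counting interval reached back below that end.

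The counting interval of the ratio left out 0 for 8 of the 10 members, 6 higher (HSPA8, HSPH1, BAG3, DNAJB1, HSP90AA1 and HSP90AB1) and 2 lower (HSPA1B and HSPB1), where it left out 0 for 38.4% of all genes averaging 10 CPM or more, 20.4% above and 18% below. With HSPA1A and HSPA1B added together, the interval of the sum included 0, so the lower call of HSPA1B was lost. Deeply counted genes pass this limit with small ratios: it left out 0 for 62.3% of genes averaging 100 CPM or more, and lay above 0 for 36.4%, and it left out 0 for 6 of the 7 members at that level. The interval holds counting error alone, and the spread between cultures of 1 concentration was not measured.

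**Figure D3:**
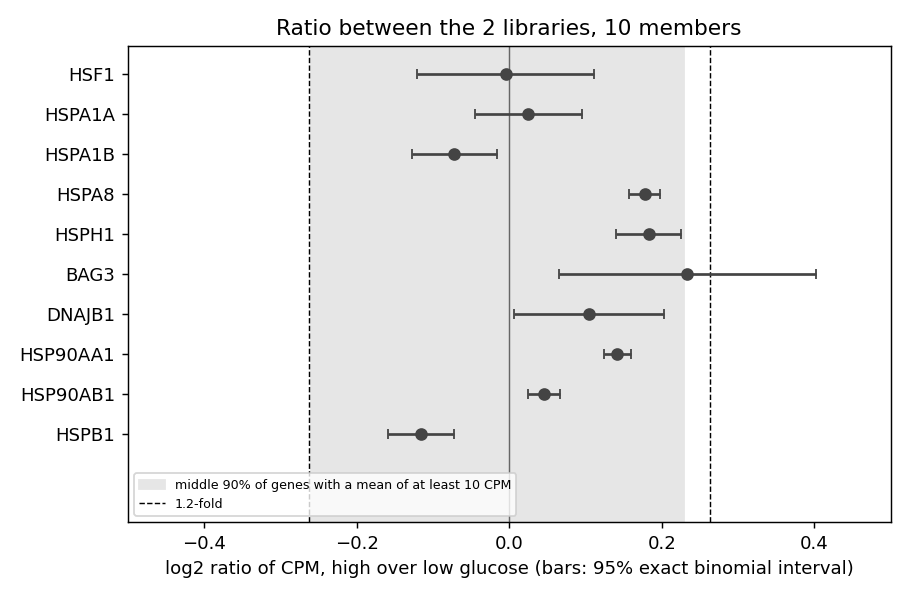
Log2 ratio of CPM, high over low glucose, for the 10 members (rows), with 95% exact binomial intervals; the grey band is the middle 90% of the 9345 genes averaging 10 CPM or more, and dashed lines mark 1.2-fold. All 10 points lie between the dashed lines, HSPB1 and HSPA1B to the left of 0 with intervals that leave it out, and 6 members to the right in the same way.

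**Figure D4:**
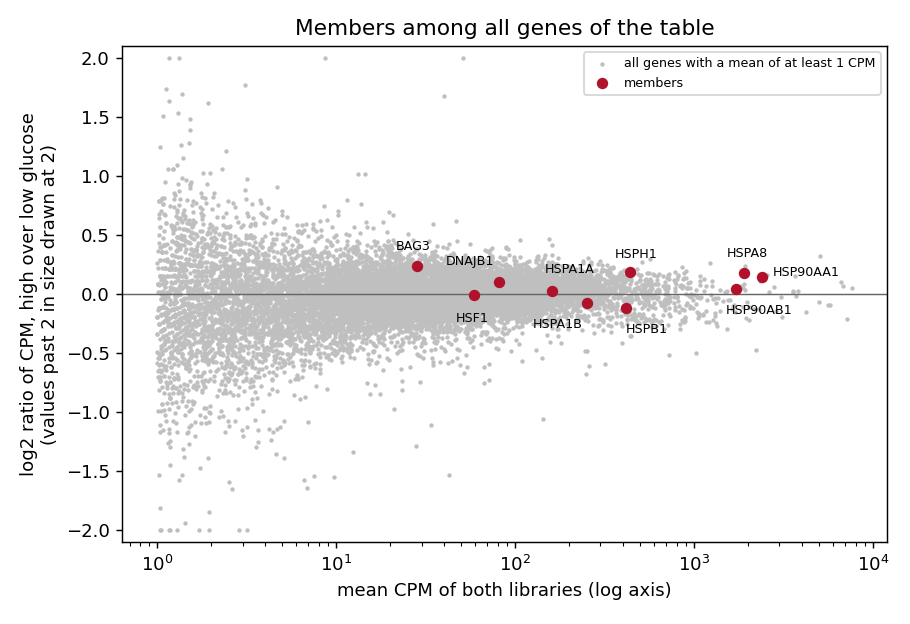
Log2 ratio of CPM, high over low glucose, against the mean CPM of both libraries (log axis) for all genes averaging 1 CPM or more (grey), with the 10 members in red. The members span from 28.3 CPM (BAG3) to 2399 CPM (HSP90AA1) and stay within the cloud of other genes.

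Set beside the promoter elements, the ratios of the 3 genes with a 3-unit element were 0.046, 0.14 and 0.18, those of the other 4 genes with a pair of units ran from -0.12 (HSPB1) to 0.10 (DNAJB1), and the genes without a pair, HSPH1 and BAG3, had 0.18 and 0.23. Across the table, 34 genes averaging 10 CPM or more had a 3-unit element in a window, with a median log2 ratio of 0.061, against 0.0099 for the 7238 genes whose windows held none; these 34 include 3 members. For the pair of units the order of the medians was the opposite, 0.0037 over 964 genes with a pair and 0.011 over 6308 without.

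The wider cytosolic network was described by lists, counting genes averaging 1 CPM or more, and genes past 1.2-fold among those averaging 10 CPM or more. For comparison with each list, 48.6% of all 13052 genes averaging 1 CPM or more were above 0, with a median of -0.0064. In the HSP70 and HSP110 family, 8 of 9 genes were above 0, with a median of 0.18, and 0 passed 1.2-fold. Without the 4 members in it, the median of the other 5 was 0.19. Over genes averaging 10 CPM or more, which leaves out HSPA1L on 34 and 35 estimated counts, the list's median was 0.13. HSPA2 and HSPA4, named after their values were seen, were at 149 and 170.5 CPM and at 182 and 214 CPM in low and high glucose. The counting intervals of both ratios lay above 0. Those of the other non-members counted here included 0: HSPA4L at 0.081 (-0.012 to 0.17), HSPA14 at 0.052 (-0.055 to 0.16) and HSPA1L at 0.20 (-0.52 to 0.92). HSPA6, an HSP70 gene that many cells transcribe only under stress, rested on 2 estimated counts in each library, 0.104 CPM (0.025 to 0.34) and 0.115 CPM (0.028 to 0.37), too few to compare the concentrations.

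Of 9 DNAJA and DNAJB co-chaperones, 5 were above 0 and 4 below, with a median of 0.062, or 0.014 without DNAJB1. DNAJA1, the most abundant of them, was at 325 CPM (318 to 333) in low and 381 CPM (372 to 390) in high glucose, with a log2 ratio of 0.23 (0.18 to 0.27), and DNAJA4 was under 1 CPM. Among 9 exchange and release factors of HSP70, 3 were above 0 and 6 below, with a median of -0.050. ST13, which stabilises the ADP-bound form of HSP70 and was the most abundant, was at 273 and 270 CPM, and its interval of -0.072 to 0.036 on the log2 scale included 0.

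Of HSP90 and its co-chaperones, 12 of 13 genes were above 0, with a median of 0.14, and 8 counting intervals, those of HSP90AA1 and HSP90AB1 among them, lay above 0 and 0 below. Of the 9 that averaged 100 CPM or more, 8 ratios and 5 intervals were above 0, beside 57.9% of ratios and 36.4% of intervals over all genes at that level. CHORDC1, an HSP90 co-chaperone, was at 38.4 CPM in low glucose (35.9 to 41.1) and 48.5 CPM in high glucose (45.5 to 51.6), a log2 ratio of 0.33 (0.20 to 0.47). FKBP5, an immunophilin that binds steroid receptor complexes of HSP90 and is itself induced by glucocorticoids, was at 88.5 CPM (84.6 to 92.5) and 108 CPM (104 to 113), a log2 ratio of 0.29 (0.20 to 0.38). These 2 of 13 genes stand against the 3.2% of all genes that were higher by 1.2-fold.

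Of the small heat shock proteins, HSPB1 alone was abundant. HSPB8 and HSPB11 had means of 21.3 and 20.7 CPM, HSPB6, HSPB9 and CRYAB were under 1 CPM, and HSPB2, HSPB3, HSPB7 and CRYAA had no row. Among 17 other genes known as HSF1 targets, 11 were above 0 and 6 below, with a median of 0.044, and CHORDC1 was the 1 gene past 1.2-fold.

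**Figure D5:**
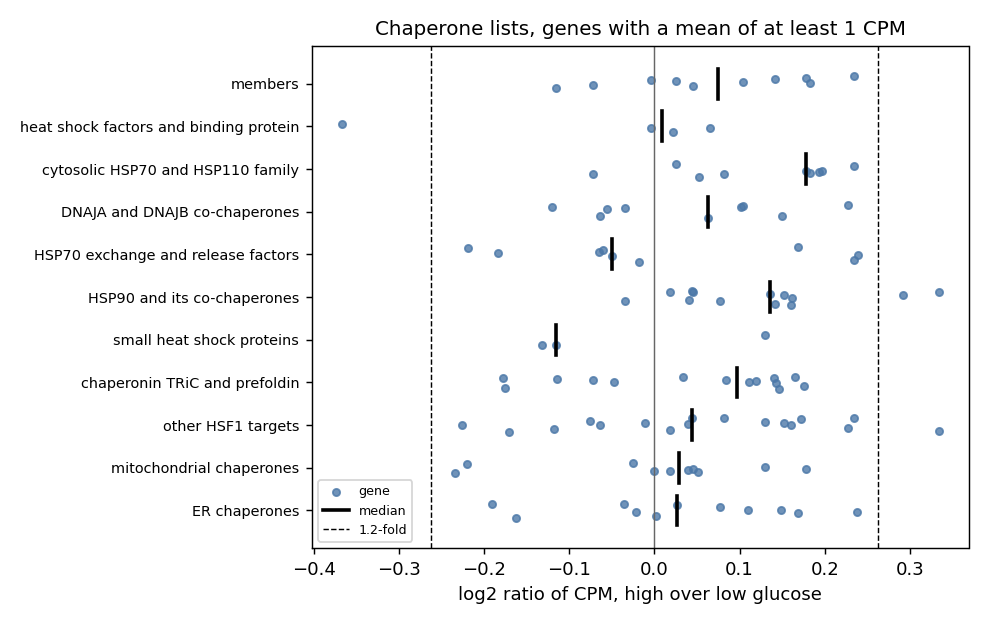
Log2 ratio of CPM, high over low glucose, for each gene averaging 1 CPM or more in 11 lists (rows), with the list median as a black bar and dashed lines at 1.2-fold. The medians run from -0.12 (small heat shock proteins, 3 genes, where the median is HSPB1's own ratio and is -0.0006 without it) to 0.18 (HSP70 and HSP110 family), and lists share genes with each other. HSF4, at 1.07 CPM on average, is the point at -0.37 and is not counted as past 1.2-fold.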

How the data were processed

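RNA of NCI-H716 cells was measured in 2 libraries, low and high glucose, grouped by their labels. The authors aligned 75 bases of each read to GRCh38 with GENCODE v28 models in STAR 2.6.0, estimated counts with RSEM 1.3.1, removed very low genes and normalized by TMM; the submitters' notes also name Trim Galore 0.5.0. The deposited values are CPM and their log2 CPM for each library; the log2 columns, and the authors' mean, log2 difference and fold (ratio) columns, hold the same data or their own comparison and were not used. Without the prior, both deposited CPM columns sum to the same total, so no TMM factor is visible in them. Whole counts made up 70.8% and 71.5% of values under 10 CPM (within 0.02 counts), so no count model was run.

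Totals were recovered from the steps between CPM values under 20, those counts gave TMM factors (trims of 30% and 5%), and the authors' prior was kept. TruSeq v2 libraries carry no strand. No gene had a test. The ratios and intervals were tested on simulated data. Python 3.11.15, numpy 2.4.6, pandas 2.3.3 and scipy 1.17.1 were used. Lengths and shared windows came from GENCODE v29, on the same assembly, and promoters from RefSeq. The named genes were all members and, from each list, genes past 1.2-fold averaging 10 CPM or more, the most abundant gene, and genes under 1 CPM or without a row. Most abundant means the highest mean CPM, not divided by length. HSF2, HSF4, HSPA2, HSPA4, HSPA4L, HSPA14, HSPB8, HSPB11, CD68, PFDN5, VBP1, CALR, PDIA6, CHGA, CHGB, PCSK1, SCG5 and genes sharing sequence with a member were named after their values were seen. Of the genes the rule names, 1 is not reported here. Members and lists were chosen with earlier results of these data known; the motif search, shared windows and coding identity were added after the files were seen. Alternatives were other library scalings, pseudocounts, folds, filters, transcript lengths and merging of HSPA1A with HSPA1B.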

Additional observations from a re-analysis of the deposited data

How the results depend on the processing

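The 30 results were recomputed under alternatives 171 times: 164 values stayed within the half-width of the counting interval (for a list's median, the median half-width of its genes) or, for a count, within 1.5 times; 7 moved. No member whose counting interval leaves out 0 changed sign; the medians of both marker lists given here did. Library totals alone, median-of-ratios factors, removal of the prior and pseudocounts of 1 or 0.01 CPM moved none of the members' ratios, medians or counts past these limits. These settings had little room to move the members. The TMM factors were 0.998 and 1.002, the prior was 0.012 CPM, and every member was at 26.0 CPM or more. The members past a fold numbered 0 at 1.2 and 4 at 1.1, where 34.3% of all genes averaging 10 CPM or more passed. The share of all genes past 1.2-fold was 17.8% for genes averaging 1 CPM or more, 3.13% at 100 CPM and 37.99% with no filter. Per kb of the longest coding transcript, 6 of the 10 members kept their position. The median log2 ratio of the endocrine markers was -0.062, and 0.0030 for those averaging 10 CPM or more; that of the markers of other cell types was -0.034, and 0.32 with no filter. With no filter the median of the small heat shock proteins went from -0.12 to -0.23, within that half-width. That of the HSP70 and HSP110 family went from 0.18 to 0.13 for genes averaging 10 CPM or more, also within its half-width. Leaving out 1 member moved the members' median between 0.046 and 0.10. No paired analysis was possible because each concentration has 1 library, and depth limits BAG3 most among the members.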

Other observations

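Among chaperones beyond the members, the chaperonin and prefoldin list held 9 genes above 0 and 5 below on the log2 ratio of high over low glucose, with a median of 0.097. Divided by complex after the values were seen, all 8 subunits of TRiC, the cytosolic ring that folds actin and tubulin, were higher in the high glucose library, between 0.033 and 0.18, with 7 counting intervals above 0; all 8 averaged 100 CPM or more, where 57.9% of all genes had a ratio above 0 and 36.4% an interval above 0. Its most abundant subunit gene, CCT5, was at 739 CPM (727 to 750) in low and 802 CPM (789 to 815) in high glucose. Of 6 subunits of prefoldin, which hands nascent actin and tubulin to TRiC, 5 were lower, with a median of -0.094 and 3 intervals below 0, beside 18% of intervals below 0 over all genes averaging 10 CPM or more, and VBP1 was higher at 0.14 (0.065 to 0.22). PFDN5 was at 168 CPM (162 to 173) and 148 CPM (143 to 154). None of these 14 genes passed 1.2-fold, the division was chosen with the values in view, and the difference between the complexes was not tested.

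In the compartments outside the cytosol, ratios lay on both sides of 0, where 51.9% of all genes averaging 10 CPM or more were above 0. Of 10 mitochondrial chaperones and proteases, 6 were above 0 and 4 below, with a median of 0.029; HSPD1, the mitochondrial HSP60, was the most abundant, at 1080 CPM (1066 to 1094) in low and 1182 CPM (1167 to 1197) in high glucose. Of 11 chaperones of the endoplasmic reticulum, 7 were above 0 and 4 below, with a median of 0.026. HSP90B1, the HSP90 of that compartment, had the highest mean CPM. It was at 1329 CPM (1313 to 1344) in low and 1296 CPM (1280 to 1312) in high glucose. CALR was above HSP90B1 in low glucose at 1379 CPM, and PDIA6 was above it in high glucose at 1303 CPM. Neither list had a gene past 1.2-fold. Of the marker lists, SCGN among the endocrine genes and VIL1 and CDX2 among the gut genes were past 1.2-fold higher, as were 3.2% of all genes averaging 10 CPM or more; VIL1 was at 11.7 and 17.8 CPM, CDX2 at 30.5 and 38.2 CPM and SCGN at 16.9 and 20.4 CPM, with a log2 ratio of 0.27 (0.062 to 0.48). Of the 9 endocrine markers, 4 were above 0 and 5 below, and of the 7 averaging 10 CPM or more, the intervals of GCG, CHGA and CHGB lay below 0 and those of PCSK1 and SCGN above it, beside 18% below and 20.4% above over all genes at that level; PCSK1 was at 0.11 (0.076 to 0.15), and SCG5, at 5.10 CPM on average, was at -0.56 (-0.98 to -0.15). The medians were 0.22 over 5 epithelial and gut markers and -0.062 over 9 endocrine markers. Over those averaging 10 CPM or more, they were 0.27 for the epithelial and gut markers and 0.0030 for the endocrine markers.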
